A study of Mus musculus with 6 samples.

Results

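The 10 genes described here encode the enzymes that make serine (Phgdh, Psat1 and Psph), those that turn serine into glycine (Shmt1 and Shmt2) and those that carry the released carbon on folate in mitochondria (Mthfd2, Mthfd1l and Aldh1l2) or in the cytosol (Mthfd1 and Aldh1l1). They are 10 of the 14766 gene names that the deposited annotation uses. The set was chosen by the read level of Aldh1l2, which was much higher in the CD24+ than in the CD24- libraries used here, together with the enzymes of the same pathway. Their differences between the groups are therefore given as a description, without p-values. Where a member is said to pass or miss the threshold used for all genes, this is a description as well.

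Mvt1 cells are a line from a mouse mammary carcinoma, labelled as epithelial cancer cells of the FVB/N strain. Its cells were sorted by flow cytometry into CD24- cells, which lack the CD24 protein on their surface, and CD24+ cells, which carry it. Each group was grown as 3 adherent plates in the same serum-containing medium, without further treatment, and messenger RNA of every plate was sequenced. Independent sorts were not described, so SDs and p-values measure the spread between plates, and in bulk RNA fewer cells expressing a gene cannot be told apart from less RNA per cell.

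In cells, PHGDH, PSAT1 and PSPH convert a glycolytic intermediate into serine in a row of 3 steps. SHMT2 in mitochondria and SHMT1 in the cytosol then split serine into glycine and a one-carbon unit on tetrahydrofolate. In mitochondria MTHFD2 oxidizes this unit to formyl-folate, from which MTHFD1L releases formate and ALDH1L2 releases carbon dioxide with reduction of NADP+. In the cytosol MTHFD1 takes the formate up again for purine and thymidylate synthesis, and ALDH1L1 is the cytosolic counterpart of ALDH1L2. The mitochondrial enzymes and serine synthesis are known to be raised in many tumors, and ATF4, a transcription factor of the amino acid response, is a known activator of most of their genes.

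The reads themselves were 47-nt sequences with a count per library. For each of 6 genes, the coding sequence with the most reads over the 6 libraries is given in the sense of the transcript. These genes are shown because they differed most (Aldh1l2, Mthfd2 and Psph) or form mitochondrial and cytosolic counterparts (Shmt2 with Shmt1, and Mthfd2 with Mthfd1). Only sequences that match the coding part of the gene's GENCODE M21 transcript without a mismatch were eligible.
Aldh1l2: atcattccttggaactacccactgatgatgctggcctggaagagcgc
Mthfd2: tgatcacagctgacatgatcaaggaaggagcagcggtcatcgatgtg
Psph: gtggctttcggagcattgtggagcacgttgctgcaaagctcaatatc
Shmt2: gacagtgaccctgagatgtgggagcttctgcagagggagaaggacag
Shmt1: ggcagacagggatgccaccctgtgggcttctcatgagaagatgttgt
Mthfd1: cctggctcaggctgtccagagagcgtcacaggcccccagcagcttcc

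The Aldh1l2 sequence lay at chr10:82966732-82966778 of mm9, the build named in the submitters' processing notes, at coding bases 1771 to 1817. It was read 0, 0 and 0 times in CD24- replicates 1 to 3 and 4, 4 and 5 times in CD24+ replicates 1 to 3. The Mthfd2 sequence (chr6:83258993-83259039) was read 5, 7 and 23 times in CD24- cells and 24, 62 and 75 times in CD24+ cells. The Psph sequence (chr5:130275160-130275206) was read 2, 2 and 5 times and 16, 17 and 39 times in the same order. No single sequence carried the level of a gene: the 7396 Aldh1l2 reads were spread over 3402 distinct sequences. The Shmt1 sequence (chr11:60620476-60620522) was read 9, 1 and 5 times in CD24- cells and 3, 5 and 1 times in CD24+ cells. The Shmt2 sequence (chr10:126958007-126958053) was read 13, 4 and 21 times against 22, 44 and 70 times, and the Mthfd1 sequence (chr12:77412903-77412949) 11, 9 and 12 times against 8, 18 and 16 times. These are raw counts, and CD24+ replicates 2 and 3 held more reads than the other libraries.

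Each library held between 9046025 and 25692147 mapped reads, of which 71.8% to 74.3% were annotated to a gene, and CD24+ replicate 1 was the shallowest. Reads were summed per gene and given as CPM, the counts of a gene per 1000000 reads annotated to genes after TMM scaling, a correction for library composition. Cd24a, the gene of the sorted marker, stood at 10.2 ± 2.79 CPM in CD24- and 77.2 ± 7.31 CPM in CD24+ cells (SD over 3 libraries), so the CD24- libraries still held its reads. Of 11125 genes with enough reads for the edgeR quasi-likelihood test, 5130 passed an adjusted p of 0.05, 2652 as higher and 2478 as lower in CD24+ cells. Counts of CD24- replicates 1 and 2 differed by a chi-square of 1.71 per degree of freedom, and by 9.81 and 11.4 from CD24- replicate 3. The CD24+ libraries differed from each other by 9.33 to 15.2.

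Among the serine synthesis genes, each of the 3 was higher in CD24+ cells, and Psph differed most. Phgdh, which encodes the first enzyme of the route (reads at chr3:98117092-98143890), had 383, 372 and 500.0 CPM in CD24- replicates 1 to 3 and 853, 625 and 666 CPM in CD24+ replicates 1 to 3. The groups did not overlap, and the lowest CD24+ library was 1.25 times the highest CD24- one. Its log2 fold-change was 0.77 (standard error 0.14). Psat1, the transaminase gene of the second step (chr19:15979575-15999545), had 538, 522 and 699 CPM in CD24- cells and 1229, 1118 and 1119 CPM in CD24+ cells. These were the highest deposited values of the set in every library, and the log2 fold-change was 0.98 (standard error 0.12). The deposited counts hold 64.2% of the reads that match a Phgdh transcript and 93.0% of those that match a Psat1 transcript. Counting all reads on the longest transcript put Phgdh (581, 577 and 753 CPM) above Psat1 (548, 540.1 and 705 CPM) in CD24- replicates 1 to 3. Psph encodes the phosphatase of the last step (chr5:130271431-130293122) and had 19.9, 17.7 and 33.4 CPM in CD24- cells against 163, 82.2 and 112 CPM in CD24+ cells. The difference came to 5.03-fold in the means, with a log2 fold-change of 2.32 (standard error 0.27), and CD24- replicate 3 and CD24+ replicate 1 were the highest of their groups. With the median coverage of the transcript and an added constant of 10, an estimate built on the study's own steps, Psph was at 1.33. The constant shrinks the differences of genes with low coverage, here and wherever this estimate is given, and the median coverage of Psph was 3, 3 and 4 reads in CD24- libraries. With each distinct sequence counted once, a measure that flattens abundant genes, Phgdh was at 0.18, Psat1 at 0.31 and Psph at 1.51.

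The pair that converts serine to glycine differed in opposite directions. Shmt2, the mitochondrial form (chr10:126954217-126959489), had 195, 194 and 291 CPM in CD24- cells and 525, 421 and 470.4 CPM in CD24+ cells, a log2 fold-change of 1.06 (standard error 0.15). Shmt1, the cytosolic form (chr11:60602352-60624737), had 60.6, 60.1 and 60.7 CPM in CD24- cells and 29.6, 32.3 and 29.04 CPM in CD24+ cells. Its CD24- replicates lay closest together of all members, from 576, 634 and 538 reads. All reads on its longest transcript gave 60.3, 60.4 and 56.8 CPM there, so the very small SD depended on which reads were counted. The CD24+ mean was 50.1% of the CD24- mean (log2 fold-change -0.99, standard error 0.09). With median coverage the log2 fold-change of Shmt1 was -0.31. With each distinct sequence counted once that of Shmt2 was 0.45. Neither gene overlapped between the groups. Per kilobase of transcript, Shmt2 was 4.68 ± 1.13 times as abundant as Shmt1 in CD24- cells and 19.6 ± 2.99 times in CD24+ cells (SD of the ratio, n = 3 each). With the median length of each gene's coding transcripts in place of the longest, the ratios were 2.19 ± 0.530 and 9.16 ± 1.40.

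Of the mitochondrial folate enzymes, Mthfd2 and Aldh1l2 were higher in CD24+ cells, while the groups overlapped for Mthfd1l. Mthfd2, the dehydrogenase and cyclohydrolase gene (chr6:83255686-83267597), had 58.1, 61.4 and 152 CPM in CD24- cells and 379, 279 and 314 CPM in CD24+ cells. CD24- replicate 3 was well above the other 2 of its group, and the coefficient of variation of CD24- cells, 58.7%, was the largest of the set. The log2 fold-change was 1.84 (standard error 0.31), and 2.43 without CD24- replicate 3. It was 1.51 with median coverage and 1.13 with each distinct sequence counted once. Mthfd1l, whose enzyme releases formate (chr10:6190427-6373460), had 105, 101 and 137 CPM in CD24- cells and 119, 151 and 115 CPM in CD24+ cells. Its log2 fold-change of 0.17 (standard error 0.14) ranged from 0.02 without CD24+ replicate 2 to 0.32 without CD24- replicate 3.

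Aldh1l2, which encodes the mitochondrial formyl-folate dehydrogenase (chr10:82950267-82996851), was the gene the set was chosen around. It had 6.84, 4.36 and 11.2 CPM in CD24- replicates 1 to 3, from 65, 46 and 99 reads. In CD24+ replicates 1 to 3 it had 212, 121 and 194 CPM, from 1350, 2141 and 3695 reads. The lowest CD24+ library was 10.8 times the highest CD24- library, and CD24- cells stood at 4.24% of the CD24+ mean. The log2 fold-change was 4.57 (standard error 0.30) and lay between 4.28 and 4.97 with each library left out in turn. With median coverage it was 1.36, a value compressed by the added constant of 10, since the median coverage was 0, 0 and 1 read in CD24- replicates 1 to 3 and 12, 18 and 32 reads in CD24+ replicates 1 to 3.

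The cytosolic enzymes were at a lower level in CD24+ cells or almost unread. Mthfd1, whose product joins 3 activities of the cytosolic folate cycle (chr12:77356361-77420785), had 181, 206 and 205 CPM in CD24- cells and 128, 177 and 140.3 CPM in CD24+ cells. The groups did not overlap, but CD24+ replicate 2 came close to CD24- replicate 1. Its log2 fold-change was -0.41 (standard error 0.12), and -0.38 without either CD24- replicate 2 or CD24+ replicate 3, where it no longer passed the threshold. Aldh1l1, the cytosolic counterpart of Aldh1l2 (chr6:90509312-90548262), had 0 reads in 5 libraries and 4 reads in CD24+ replicate 3. It did not have enough reads for a test, and a count of 0 allows a level of up to 3 reads, or 0.170 to 0.472 CPM in those 5 libraries, by counting error alone.

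Of the 10 members, 9 had enough reads, 8 passed the threshold (6 higher and 2 lower) and 8 did not overlap between the groups. Over all tested genes 46.1% passed and 57.3% did not overlap, and nothing is read from the members' count because the set was chosen on this contrast. The median log2 fold-change was 0.98 over the 9 members and 0.02 over all genes.

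**Figure D1:**
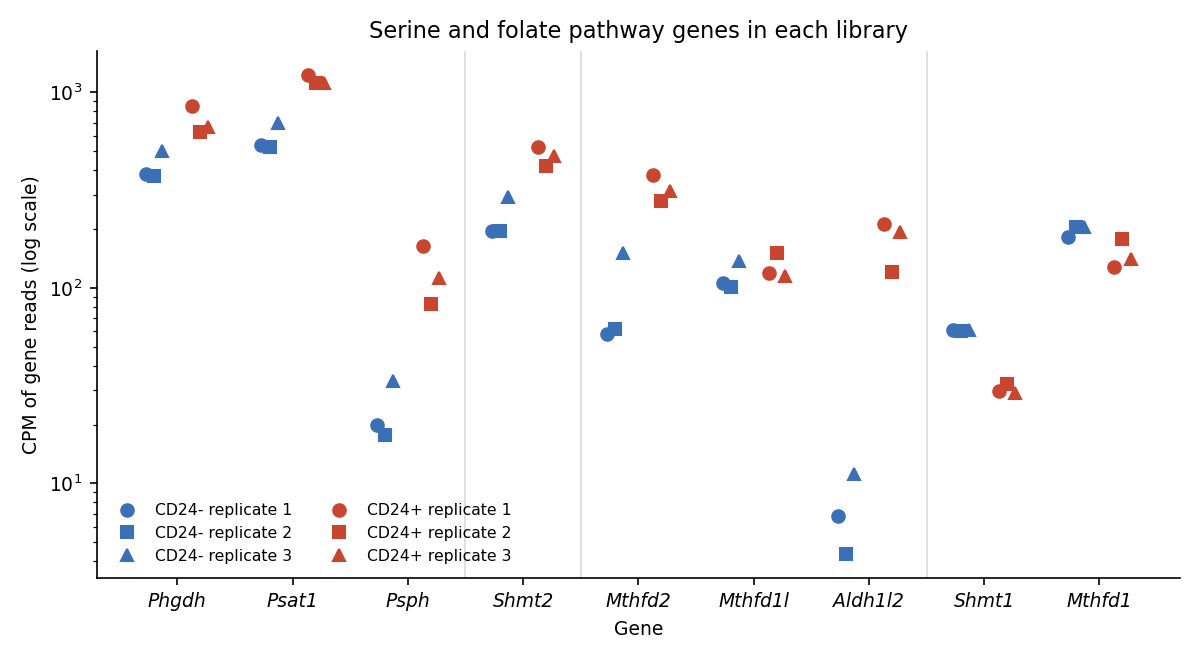
CPM of gene reads (log axis) of the 9 members with enough reads, one point per library, with CD24- in blue and CD24+ in red and a symbol for each replicate; grey lines part the roles. Aldh1l2 shows the widest gap, 4.36 to 11.2 CPM against 121 to 212 CPM, while the groups overlap for Mthfd1l and lie lower in CD24+ cells for Shmt1 and Mthfd1.

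Levels were compared between genes as CPM per kilobase of the longest coding transcript. Reads across exon boundaries were not counted, but the full length was used, so a gene with many exons for its length can be understated. The transcripts of Mthfd1l (3687 nt) and Mthfd1 (3241 nt) have 28 exons each. Those of Aldh1l2 (6027 nt) and Mthfd2 (2085 nt) have 23 and 8. In CD24- cells Psat1 (224 ± 37.4) and Phgdh (221 ± 37.5) led and did not differ beyond their SDs in the deposited counts, followed by Shmt2 (99.1 ± 24.2). Mthfd1 (60.9 ± 4.33), Mthfd2 (43.3 ± 25.4) and Mthfd1l (31.1 ± 5.29) came next, and the spread of Mthfd2 covered both its neighbours. Shmt1 (21.2 ± 0.109), Psph (13.7 ± 4.89) and Aldh1l2 (1.24 ± 0.571) were the lowest of the genes with reads in these libraries (SD, n = 3 each).

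In CD24+ cells the order changed below the leading genes. Psat1 (442 ± 24.4), Phgdh (377 ± 64.4) and Shmt2 (206 ± 22.8) kept their places with this transcript length, and Psat1 and Phgdh again overlapped within their SDs. Mthfd2 (155 ± 24.3) and Psph (68.7 ± 23.6) now stood above Mthfd1 (45.7 ± 7.84), although the SDs of Psph and Mthfd1 overlapped. Mthfd1l (34.9 ± 5.39) and Aldh1l2 (29.2 ± 8.02) could not be set apart. Shmt1 (10.6 ± 0.602) was the lowest gene apart from Aldh1l1. By this measure Aldh1l2 lay at the bottom in CD24- cells and beside Mthfd1l, whose enzyme also uses mitochondrial formyl-folate, in CD24+ cells. Their unlike exon numbers limit this comparison. So does the length used for Mthfd1l, as the last of 10 equal parts of that transcript held 0% to 0.174% of its reads.

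Ratios within a library show how the RNA levels of the genes stood to each other, not the amounts of enzyme. They carry the same limit of reads lost across exon boundaries. Mthfd2 was at 0.704 ± 0.385 of the Mthfd1 level per kilobase in CD24- cells and at 3.51 ± 1.08 in CD24+ cells, and the 3 ratios of one group did not reach those of the other. With the median transcript length these means were 1.09 ± 0.596 and 5.44 ± 1.67. The CD24- ratios were then 0.772, 0.719 and 1.78 in replicates 1 to 3, so Mthfd2 was above Mthfd1 in replicate 3 and below it in the other 2. Mthfd1l over Mthfd1 went from 0.510 ± 0.0767 to 0.764 ± 0.0473. Within serine synthesis, Psat1 RNA was 17.1 ± 2.91 times Psph RNA in CD24- cells and 6.87 ± 2.02 times Psph RNA in CD24+ cells (SD, n = 3 each). With the median length it was 9.04 ± 1.54 times and 3.64 ± 1.07 times. The order of the levels depended on the length as well. With the median length Phgdh ranked above Psat1 in both groups, and Shmt1 (45.7 ± 0.234) above Mthfd1l (31.2 ± 5.31) in CD24- cells. In CD24+ cells Mthfd2 (256.3 ± 40.1) ranked above Shmt2 (209 ± 23.1). Aldh1l2 (35.3 ± 9.70) and Mthfd1l (35.03 ± 5.42) could not be set apart there. In CD24- cells the means of Mthfd2 (71.5 ± 41.9) and Mthfd1 (64.9 ± 4.62) lay within the SD of Mthfd2, and their order rested on replicate 3.

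Which reads were counted changed the order at the top. With all reads on the longest transcript in place of the deposited counts, an alternative chosen after seeing the data, Phgdh stood at 337 ± 53.0 and Psat1 at 228 ± 35.5 per kilobase in CD24- cells, further apart than their SDs. These Phgdh reads include some annotated to Il16, to NM_029460 or to nothing. In CD24+ cells Phgdh (573 ± 97.8) was again first, and its SD overlapped that of Psat1 (461 ± 31.5). Aldh1l2 (31.9 ± 9.20) and Mthfd1l (26.9 ± 4.39) then changed places in CD24+ cells within their SDs, and the other members kept their ranks (SD, n = 3 each). The longest Mthfd1l transcript held 576, 2086 and 1698 reads in CD24+ replicates 1 to 3. Reads annotated to Mthfd1l that matched any of its transcripts numbered 708, 2494 and 2058, so this count understates Mthfd1l.

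**Figure D2:**
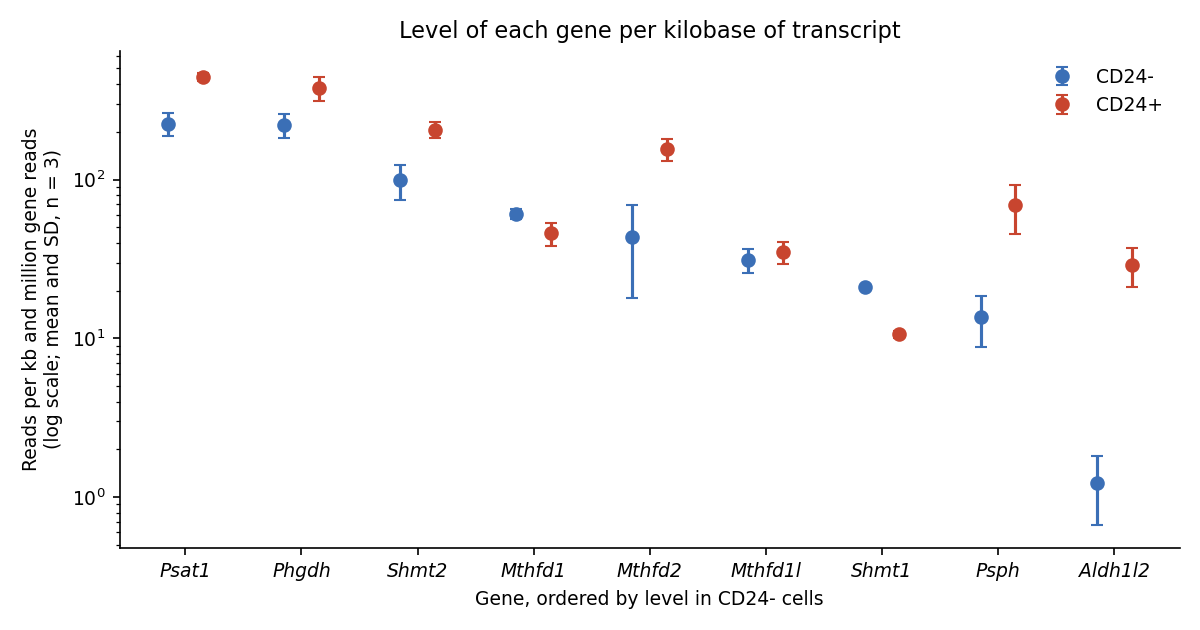
Mean level of 9 members as CPM per kilobase of transcript (log axis) in CD24- (blue) and CD24+ (red) cells, with bars for the SD of 3 libraries and genes ordered by their CD24- level. Psat1 and Phgdh lead in both groups in the deposited counts, and Aldh1l2 goes from 1.24 to 29.2, next to Mthfd1l at 34.9.

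Because coverage can be uneven, the position of reads along the transcripts was examined. The Aldh1l2 transcript has 6027 nt in 23 exons, and reads covered 37.3%, 31.04% and 50.5% of its bases in CD24- replicates 1 to 3 and 96.6%, 97.3% and 98.2% in CD24+ replicates 1 to 3. Coding reads numbered 29, 19 and 40 in CD24- cells and 546, 890 and 1451 in CD24+ cells. The log2 ratio of the mean CPM was 4.50 for coding reads and 4.78 for reads of the 3' UTR, so both parts of the transcript gave a like difference. With the transcript cut into 10 equal parts, no part held less than 5.81% or more than 13.9% of the reads in CD24+ cells. Shares in CD24- cells scattered more, over 49 to 101 reads per library. About 10.0% of the reads that matched an Aldh1l2 transcript had been annotated to repeats in the deposited files and are not in its counts.

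Psph was uneven. Its 5' end overlaps Cct6a, a chaperonin gene, and the counts carry no strand. Of the reads that matched a Psph transcript, 31, 53 and 34 in CD24- replicates 1 to 3 were annotated to Cct6a. In CD24+ replicates 1 to 3 these were 22, 69 and 64. They are not in the deposited Psph counts given above, but the shares that follow count reads on the transcript whatever their annotation. The first of 10 equal parts of the transcript held 15.3%, 23.1% and 11.2% of the reads on it in CD24- replicates 1 to 3 and 2.29%, 4.76% and 3.08% in CD24+ replicates 1 to 3. In reads this was 33, 54 and 36 in CD24- and 24, 71 and 66 in CD24+ replicates 1 to 3. The part of Cct6a in these shares was not tested. For coding reads alone, 88, 92 and 147 in CD24- cells and 618, 800 and 1191 in CD24+ cells, the log2 ratio of the mean CPM was 2.57. For reads of the 5' UTR, whatever their annotation, it was 1.51.

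For the other members the deposited counts left out some reads. Of the reads that matched a Phgdh transcript 31.5% had no annotation. Others were annotated to Il16 (131 to 429 reads a library) or to NM_029460 (96 to 458). The counts of all reads on the longest Phgdh transcript include such reads. Conversely, 86.6% of the reads deposited as Shmt1 matched a Shmt1 transcript. For Shmt1 and Shmt2 13.3% and 9.14% were annotated to repeats. Counting instead all reads that matched a single GENCODE gene gave log2 fold-changes of 0.75 for Phgdh, 0.99 for Psat1, 1.05 for Shmt2, -0.84 for Shmt1 and 4.70 for Aldh1l2.

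**Figure D3:**
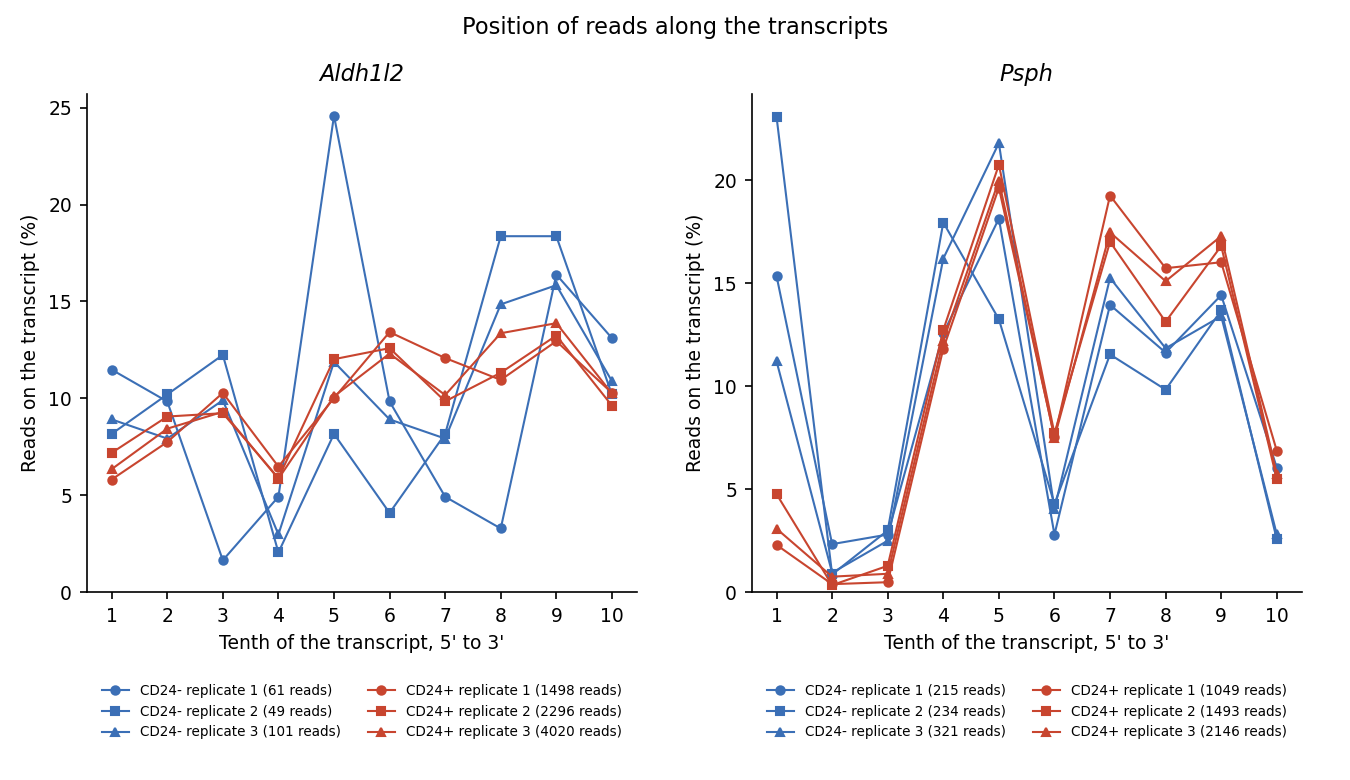
Share of reads (percent) in each of 10 equal parts of the Aldh1l2 and Psph transcripts from the 5' to the 3' end, one line per library (blue CD24-, red CD24+), with the number of reads on the transcript in the legend. The CD24+ lines of Aldh1l2 stay between 5.81% and 13.9% along the transcript, and the first part of Psph holds 11.2% to 23.1% in CD24- libraries against 2.29% to 4.76% in CD24+ libraries.

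The members that were higher in CD24+ cells shared an order of libraries within the groups, which the comparison of means did not use. For Phgdh, Psat1, Psph, Shmt2, Mthfd2 and Aldh1l2, 6 of the 9, CD24- replicate 3 was the highest of its group while CD24+ replicate 1 was the highest and CD24+ replicate 2 the lowest of theirs. The same order was found for 755 of 11125 genes, or 6.79%, and it was picked out after the values were seen. It held for 7 of 11 regulators and ATF4 targets (Atf4, Atf5, Ddit3, Trib3, Asns, Chac1 and Nupr1) and for 9 of the 60 tested genes on the lists of other pathway genes and regulators together, or 15%. CD24+ replicate 1 was also the shallowest library. The part of these libraries in the members' spread was not tested beyond leaving each out.

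Regulators of the pathway and known targets of ATF4 were compared next, on a list of 11 written with earlier results of these data known. All 11 had enough reads, 10 were higher and 1 was lower in CD24+ cells, against 23.8% higher and 22.3% lower over all genes. Atf4 encodes the transcription factor named above and had 186, 201 and 269 CPM in CD24- replicates 1 to 3 and 809, 557 and 676 CPM in CD24+ replicates 1 to 3, so the groups did not overlap. It rose by 1.64 ± 0.16 on the log2 scale (standard error; Benjamini-Hochberg adjusted p = 2.03e-05, edgeR). Counting each distinct sequence once, a measure that flattens abundant genes, left Atf4 at 0.50 (adjusted p = 0.110 from edgeR). Atf5, a related factor, rose from 43.0 ± 20.1 to 481 ± 144 CPM (SD over 3 libraries), or by 3.49 on the log2 scale (adjusted p = 1.01e-05, edgeR).

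Among the known ATF4 targets, Chac1, which encodes a glutathione-degrading enzyme, had the largest rise, with a log2 fold-change of 3.75 (adjusted p = 7.57e-06, edgeR). Trib3, a pseudokinase gene of the stress response, rose by 3.14 (adjusted p = 1.13e-05, edgeR). Asns, which encodes asparagine synthetase, rose by 2.32 (adjusted p = 0.000410, edgeR). Like Mthfd2, Asns was uneven among CD24- cells, with 63.3, 57.9 and 171 CPM in replicates 1 to 3, and CD24+ cells had 578, 405 and 476 CPM. Ddit3 (1.504), Sesn2 (1.32) and Nupr1 (1.29), stress response genes, and Cebpb (1.34), a transcription factor gene, rose less, with no adjusted p above 0.000475 (edgeR). Nfe2l2, which encodes NRF2, an activator of ATF4 and of serine synthesis in some tumors, had the smallest rise, 0.23 (adjusted p = 0.0220, edgeR). It lost its call without CD24- replicate 1 (0.24), CD24- replicate 2 (0.22), CD24+ replicate 2 (0.21) or CD24+ replicate 3 (0.21), with each distinct sequence counted once (0.03), with median coverage (0.14) and with the replicate number as a block (0.23).

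Myc, another known activator of serine and folate genes, went the other way. It had 989, 938 and 767 CPM in CD24- cells and 193, 276 and 285 CPM in CD24+ cells. It fell by 1.83 ± 0.15 on the log2 scale (standard error; adjusted p = 5.77e-06, edgeR), and the lowest CD24- library lay above the highest CD24+ library.

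**Figure D4:**
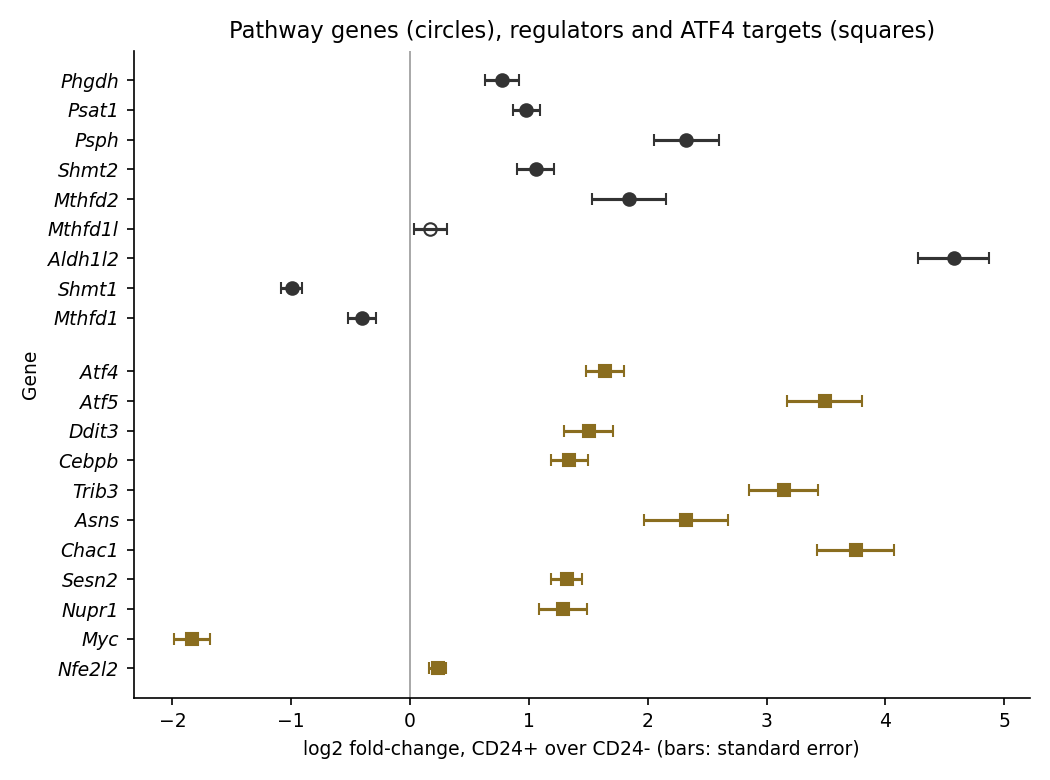
Log2 fold-change of CD24+ over CD24- cells with its standard error for 9 members (circles) and 11 regulators and ATF4 targets (squares); the open circle marks the gene whose groups overlap. Aldh1l2 has the largest value at 4.57, 10 of the 11 regulators and targets lie above 0, and Myc lies at -1.83.

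The start regions of the members were searched for the letters TGATGNAA, a form of the element that ATF4 binds with C/EBP partners, and for CACGTG, the E-box that MYC binds, on both strands. The windows were RefSeq sequences of GRCm38.p6 from 250 bases before to 50 bases after each gene start, available for 9 members, with Aldh1l2 not among them. A gene was counted if any of its windows held the letters. TGATGNAA was found for 0 of these 9 members, for 4 of 10 regulators and targets (Trib3, Asns, Chac1 and Nupr1) and for 4.51% of all 27025 genes with a window. CACGTG was found for 0 of 9, for 1 of 10 (Nupr1) and for 8.09%. A missing match says only that these letters are not in the window.

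Other genes of serine, folate and one-carbon metabolism were taken from 6 lists, and they did not move as one. The counts of each list stand beside 23.8% called higher and 22.3% called lower over all tested genes. Of 12 tested genes of folate uptake, retention and reduction, 4 rose, 4 fell and 4 were not called. Ggh, which encodes the hydrolase that shortens stored folates, rose from 2.16 ± 0.688 to 10.8 ± 2.87 CPM (SD over 3 libraries), by 2.26 on the log2 scale (adjusted p = 9.21e-05, edgeR). Its counts were low, and the median-coverage estimate gave 0.07. Slc46a1, a folate transporter gene, had a log2 fold-change of 0.71 (adjusted p = 0.0187, edgeR), which lost its call without CD24- replicate 1 (0.71) or CD24+ replicate 3 (0.54), in DESeq2 (0.69), with the replicate number as a block (0.68) and after every library was randomly thinned to the gene-annotated reads of the shallowest (0.82), and was -0.0070 with median coverage. Slc19a1, the reduced folate carrier gene (-0.71, adjusted p = 0.00357), and Fpgs, whose product lengthens folates for retention (-0.50, adjusted p = 0.000937), fell in edgeR's test. A pair of genes outside the naming rule was added for their roles, after the values were seen. Mthfd2l, the paralog of Mthfd2, had a log2 fold-change of -0.06 (adjusted p = 0.749, edgeR), and Slc25a32, the mitochondrial folate carrier gene, one of -0.01 (adjusted p = 0.970, edgeR), and both changed sign under some alternatives.

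In the methionine cycle and transsulfuration, 4 of 8 tested genes rose and 3 fell. Mtr, the methionine synthase gene, fell by 0.92 on the log2 scale (adjusted p = 0.000230, edgeR) and Mat2a, which makes S-adenosylmethionine, by 0.58 (adjusted p = 0.000243, edgeR). Ahcyl2, related to the gene of adenosylhomocysteinase, fell by 0.37 (adjusted p = 0.00440, edgeR). Ahcyl1 (0.65, adjusted p = 5.46e-05) and Ahcy (0.46, adjusted p = 0.00191), the adenosylhomocysteinase gene, rose in edgeR's test. Ahcy lost its call on reads of a single GENCODE gene (0.34) and with each distinct sequence counted once (0.10). Cth, which makes cysteine from serine-derived cystathionine, rose by 1.12 (adjusted p = 0.0156, edgeR), but its CD24+ values of 72.7, 24.2 and 53.1 CPM met the CD24- values of 23.6, 24.3 and 19.5 CPM. It lost its call without CD24+ replicate 1 (0.78) or CD24+ replicate 3 (1.04) and with median coverage (0.45).

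Of 6 tested genes of purine synthesis, which takes formyl-folate from the cytosolic pool, 0 rose and 4 fell. Over all tested genes 23.8% were called higher and 22.3% lower. Atic, the last enzyme of the route, fell by 0.39 (adjusted p = 0.00992, edgeR) and Prps1, which makes its ribose precursor, by 0.33 (adjusted p = 0.00745, edgeR). Gart, which uses formyl-folate, fell by 0.30 (adjusted p = 0.0203, edgeR), and lost its call without CD24- replicate 2 (-0.31) or CD24+ replicate 3 (-0.26) and with libraries thinned to equal gene reads (-0.25). Atic (-0.27) and Prps1 (-0.21) lost theirs with each distinct sequence counted once. The number of purine genes that fell was 2 to 5 with each library left out, and 1 when each distinct sequence was counted once.

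Of 7 tested genes of glycine cleavage and the mitochondrial serine carriers, Sardh rose and 6 were not called. Sardh, the sarcosine dehydrogenase gene, stood at 5.73 ± 1.53 CPM in CD24- and 14.1 ± 2.44 CPM in CD24+ cells (SD over 3 libraries), higher by 1.30 on the log2 scale (adjusted p = 0.000705, edgeR). Among 5 tested genes of other enzymes that use serine, Sptlc1 (0.38, adjusted p = 0.0271) and Sptssa (0.29, adjusted p = 0.0184), subunits of serine palmitoyltransferase, were higher in edgeR's test. Sptlc1 lost its call without CD24- replicate 1 (0.34), CD24- replicate 2 (0.32), CD24+ replicate 2 (0.28) or CD24+ replicate 3 (0.37), and Sptssa without CD24- replicate 1 (0.31) or CD24- replicate 2 (0.29). Sptlc1 also lost it on reads of a single GENCODE gene (0.34), with median coverage (0.13), with the replicate block (0.37) and with libraries thinned to equal gene reads (0.36), and Sptssa with each distinct sequence counted once (0.23).

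The other aldehyde dehydrogenases, the superfamily of Aldh1l2, were mixed. Of 11 with enough reads 2 rose, 2 fell and 7 were not called, with a median log2 fold-change of 0.09. Aldh18a1, which encodes the enzyme of the first steps of proline synthesis, rose from 89.9 ± 8.43 to 196 ± 19.4 CPM, by 1.12 on the log2 scale (adjusted p = 1.03e-05, edgeR). Aldh9a1, which acts on aminoaldehydes, fell from 104 ± 14.3 to 48.9 ± 2.51 CPM, a change of -1.10 on the log2 scale (adjusted p = 2.11e-05, edgeR). Aldh16a1 (0.36, adjusted p = 0.0132) lost its call without CD24- replicate 1 (0.32), CD24- replicate 2 (0.33) or CD24+ replicate 3 (0.35), and Aldh3b1 (-0.47, adjusted p = 0.0252) without CD24- replicate 1 (-0.46), CD24- replicate 2 (-0.35) or CD24+ replicate 2 (-0.35), all in edgeR. Aldh3b1 also lost it with each distinct sequence counted once (-0.30), on reads of a single GENCODE gene (-0.43), with median coverage (-0.16) and with libraries thinned to equal gene reads (-0.44).

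**Figure D5:**
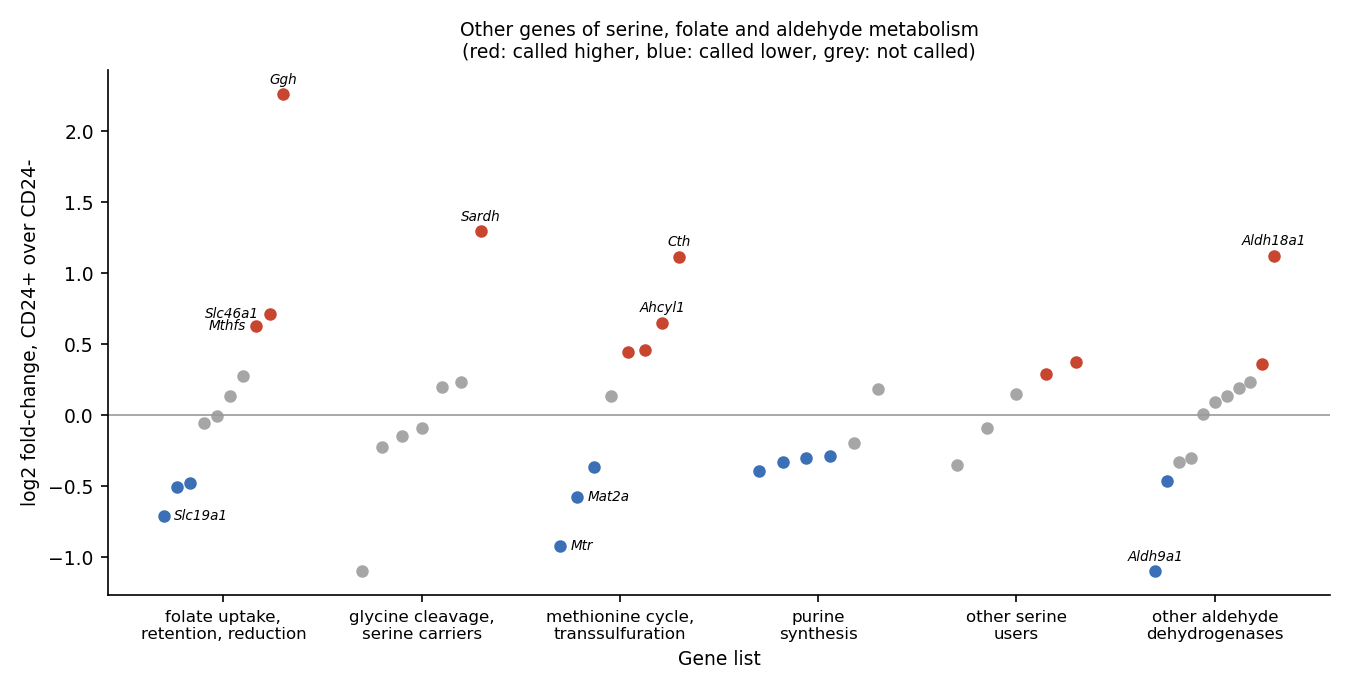
Log2 fold-change of CD24+ over CD24- cells for tested genes of 6 lists that hold no member, one point per gene; red genes passed edgeR's test as higher, blue genes as lower and grey genes did not pass. Purine synthesis has 4 lower and 0 higher genes, and Ggh at 2.26 is the highest point.

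Markers of the cell types a plate could hold moved with the groups as well. The labelled epithelial identity showed in Krt8 (1230 ± 76.1 CPM in CD24- and 597 ± 60.8 CPM in CD24+ cells) and Krt18, while Cdh1 had 2 reads and Epcam 6 reads in all libraries together. The summed level of the 9 epithelial markers was 1876 to 2088 CPM in CD24- libraries and 761 to 904 CPM in CD24+ libraries, nearly all of it Krt8 and Krt18. Of 4 epithelial markers with enough reads Krt8, Krt18 and Ocln (log2 fold-change -4.08) were lower and Cldn3 (2.47) higher in CD24+ cells. Cldn3 rested on 5, 7 and 0 reads in CD24- and 21, 32 and 44 reads in CD24+ replicates 1 to 3. With a mean CPM of at least 5 as the filter, 3 epithelial markers were left, and all 3 were lower. The summed level of the 9 fibroblast markers was 12.6 to 30.7 CPM in CD24- and 181 to 273 CPM in CD24+ libraries, most of it from Col3a1 and Pdgfrb. All 6 with enough reads passed edgeR's test as higher, against 23.8% over all genes. Col1a1, Col1a2 and Dcn had no more than 16 reads in any CD24- library. They passed the read filter through the CD24+ libraries, so the filter in part set their direction. With a mean CPM of at least 5 as the filter, 3 were tested, and all 3 were higher. Of 6, 5 passed without CD24- replicate 1, CD24- replicate 2 or CD24+ replicate 1, and 4 without CD24+ replicate 2. Without CD24+ replicate 3, 4 of 5 passed, and in DESeq2 5 of 7. Lum and Thy1, under whose names nothing was annotated, also had 0 reads matching their GENCODE genes alone. The 8 leukocyte markers summed to 3.49 to 4.93 CPM in CD24- and 0.157 to 0.395 CPM in CD24+ libraries. Most of this was Itgam, the only one with enough reads (3.84 ± 0.595 CPM in CD24- cells), while Ptprc had 2 reads in all, and Cd3e and Adgre1 had 0 by either count. The 6 endothelial markers summed to 2.70 to 4.64 CPM and 0.786 to 2.04 CPM, with Emcn at 0 by either count. The part of these shifts in the levels of the serine and folate genes was not tested.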

How the data were processed

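Per the labels, total RNA was made into TruSeq libraries, and the authors sequenced them as single-end reads of 51 nt, trimmed 2 nt at each end, collapsed identical reads and placed each remaining sequence on the genome where it matched exactly. For each of the 6 libraries they deposited read counts per distinct sequence, not normalized, with 1 location and 1 annotation. The build was mm9 per the submitters' processing notes. The sources used here do not name the mapper or where the annotation came from. Only sequences identical to a genomic stretch are therefore counted, which leaves out spliced sequence, and without strand overlapping genes cannot be told apart.

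Deposited counts were summed per gene name. Rows naming repeats, other RNA or nothing were left out of library sizes. Genes passing filterByExpr were tested with edgeR 4.0.16 (TMM, quasi-likelihood F test, Benjamini-Hochberg adjustment over 11125 genes, threshold 0.05) in R 4.3.3, without a block. No list was tested as a set. Some listed genes are counted but are not reported or drawn one by one here. The members, the gene lists and the rule for named genes were chosen with earlier results of these data known. Named were the 10 members, Cd24a, each regulator or ATF4 target, up to 3 higher and 3 lower called genes per other list whose mean log2 CPM was 2 or more, the 5 genes most like Aldh1l2, its neighbours and the leading markers. Reads were matched exactly to GENCODE M21 transcripts (GRCm38), whose coordinates are not given. Promoter windows were from RefSeq (GRCm38.p6). Python 3.11.15 with pandas 2.3.3 was used.

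Alternatives were DESeq2 1.42.0 and its size factors, library totals without TMM, other filters, each distinct sequence counted once, reads of a single GENCODE gene, median coverage with quantile normalization and a constant of 10 tested with limma 3.58.1, the replicate block, each library left out, every library randomly thinned to the gene-annotated reads of the shallowest, a minimum log2 fold-change of 1, median transcript length and, chosen after seeing the data, all reads on the longest transcript. Same-numbered libraries deviated from their group means with correlations of 0.01, -0.25 and -0.31. These values show no pairing by number but, with 3 libraries a group, cannot exclude one.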

Additional observations from a re-analysis of the deposited data

How the results depend on the processing

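Genes called among all those tested numbered 4069 to 5358 with a library left out in turn, against 5130, and members called 7 to 8, against 8. Counting each distinct sequence once left 5 members called and 9 other pathway genes lower, against 14. Phgdh (0.18), Psat1 (0.31) and Shmt2 (0.45) lost their call there. With a minimum log2 fold-change of 1, 1600 of 11125 genes and 4 members were called, where the limit itself removes the smaller changes. Of the other pathway genes 14 were then higher and 2 lower, with 9 and 1 of these among the regulators and ATF4 targets. Other pathway genes were called higher in 17 to 23 and lower in 10 to 16 cases with a library left out. Of these, 9 or 10 higher and 1 lower were regulators or ATF4 targets. The log2 fold-change of Aldh1l2 was 4.55 with DESeq2, 4.195 with each sequence counted once and 1.36 with median coverage, where the added constant compresses it. Of 1107 values recomputed for single genes, 1000 kept their direction and side of the threshold, 67 no longer passed, 10 passed anew and 30, of 11 genes, changed sign. Of the genes that changed sign Slc46a1 alone was called (-0.0070 with median coverage), and the cause was not tested. Aldh2 was at -0.0056 in DESeq2, -0.0049 with its size factors, -0.0156 without TMM, -0.0966 with each distinct sequence counted once, -0.0101 on reads of a single GENCODE gene and -0.0513 with median coverage. Slc25a32 was at 0.00063 with a filter of 1 read, 0.0988 with distinct sequences and 0.0988 on single-gene reads. Distinct sequences also turned Folr2 (-0.21) and Mthfd2l (0.0253), single-gene reads Sfxn2 (0.16), Srr (0.23) and Aldh5a1 (0.0071), and median coverage Adsl (-0.0579), Srr (0.0119) and Aldh3a1 (-0.0162). With a library left out, Slc25a32 ranged from -0.0587 to 0.0834, Mthfd2l from -0.14 to 0.0411, Sfxn2 from -0.27 to 0.0759, Aldh2 from -0.0909 to 0.0990, Aldh3a1 from -0.19 to 0.23 and Aldh6a1 from -0.0370 to 0.43. With the replicate number as a block, 4493 genes, 8 members and 20 higher and 13 lower other pathway genes were called. Among the latter, 9 higher and 1 lower were regulators or ATF4 targets. No pairing of same-numbered plates was described, and the correlations between same-numbered libraries, with 3 libraries a group, cannot exclude one. Depth limits Aldh1l1, with 4 reads, and the CD24- values of Aldh1l2, which rest on 46 to 99 reads a library.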

Other observations

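The genes whose profile over the 6 libraries was nearest to that of Aldh1l2, by Euclidean distance of centred log2 CPM among 9204 genes whose mean log2 CPM was 3 or more, were Sema3c, a semaphorin gene (distance 0.742), Prrx1, a mesenchymal transcription factor gene (1.14), Trim35 (1.19), Chac1 (1.22) and Col5a2, a fibrillar collagen gene (1.27). CD24- and CD24+ cells had 2.58 ± 0.435 and 70.8 ± 14.3 CPM of Sema3c, and 4.67 ± 0.0564 and 89.3 ± 15.3 CPM of Prrx1 (SD over 3 libraries). They were chosen for this likeness, so no test is given.

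The nearest tested genes on either side of Aldh1l2 on chromosome 10 did not share its difference. D10Wsu102e had a log2 fold-change of -0.30 (standard error 0.09) and A230046K03Rik, now Washc4, one of -0.25 (standard error 0.08).

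Ppat and Pfas, enzymes of early purine synthesis, were not counted under these names in the annotation used here. On reads that match a single GENCODE gene, Ppat had a log2 fold-change of -0.49 (adjusted p = 0.00134, edgeR) and Pfas one of -0.79 (adjusted p = 0.000293, edgeR). On those reads 6 of 8 purine genes fell.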
